A study of Mus musculus with 4 samples.

Results

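Insig1, Srebf1, Srebf2, Hmgcs1, Idi1, Acly, Acaca and Fasn, 8 genes that control or carry out sterol and fatty acid synthesis, were examined in libraries labelled MLE-12, a mouse cell line that was derived from lung epithelium and is used to model alveolar type 2 cells. These 8 of the 53465 genes in the count table were chosen from earlier results of the same libraries, in which the differences of Insig1 and Idi1 between the groups were known. Their differences are therefore given as a description, without a test. The treated group received 5 µM 1-nitropyrene, a nitrated polycyclic hydrocarbon of diesel exhaust, for 12 h (n = 2 libraries, replicates 2 and 3). The control group was kept without 1-nitropyrene (n = 2 libraries, replicates 1 and 2). No genetic change was labelled in either group. Polyadenylated RNA was sequenced after stranded library preparation. The labels gave no separate cultures, so the spread between libraries may be technical. The stated purpose was the effect of 1-nitropyrene on how Fbxw7 mRNA is translated, which RNA counts do not measure.

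Sterol supply is controlled by the SREBP transcription factors, which are made as precursors in the membrane of the endoplasmic reticulum. When sterols are plentiful, INSIG proteins hold SCAP, the escort of SREBP, in that membrane. When sterols are scarce, the complex moves to the Golgi, proteases release the SREBP, and it switches on genes of sterol and fatty acid synthesis, the INSIG1 gene among them. Alveolar type 2 cells use these pathways to make the lipids of surfactant.

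The libraries held 6908055 to 10773733 counts, of which 50.2% to 51.5% fell in protein-coding genes. Levels are CPM, a gene's counts relative to the library total after scaling with TMM factors, and a count of 0 allowed up to 0.278 to 0.434 CPM per library at a floor of 3 counts, which covers counting error only. The markers of the labelled cell type were largely missing: of 15 lung epithelial markers, 12 were at 0 counts in every library, including Nkx2-1, a transcription factor of lung epithelium, the surfactant protein genes Sftpb and Sftpd, the adhesion gene Cdh1 and the keratin genes Krt8 and Krt18. However, 12111 of the 21942 protein-coding genes were at 0 in all 4 libraries, among them genes that nearly every cell uses, such as Fdps of the mevalonate pathway and the lysosomal genes Npc2 and Lipa. A gene listed at 0 may therefore be absent from the cells or lost in the counting, and these cannot be told apart here, so the zeros do not settle the cell type. Nearly all counts of that list came from Abca3, the lipid transporter of surfactant storage bodies. Abca3 had 83 and 69 counts in the treated libraries and 109 and 56 in the controls. Of its exons, 914 bp are shared with the opposite-strand gene D330041H03Rik, whose part in these counts was not tested. The 11 mesenchymal markers, with Thy1 at 0 throughout, summed to 3.34 and 1.06 CPM in the treated libraries, against 11.6 and 5.88 CPM in the controls. Of the 2 mesenchymal markers tested, the smooth muscle actin gene Acta2 passed the test as lower, although its groups overlapped, with 12 and 0 counts in the treated libraries and 36 and 7 in the controls. The part of this difference in the results below was not tested, and fewer cells of a type and less RNA per cell cannot be told apart in bulk libraries. The 9 leukocyte and 6 endothelial markers each summed to at most 0.345 CPM in any library, with 5 and 3 of them at 0 throughout. In the adipocyte list, Lep and Retn were at 0 throughout and Adipoq had 2 and 0 counts in the treated libraries and 3 and 0 in the controls, while Pparg was abundant and is described with the lipid genes. The 13 mitochondrially encoded mRNAs summed to 24.8 and 1.88 CPM in 1-nitropyrene replicates 2 and 3, against 46.5 and 30.1 CPM in the controls. These sums rest on only 216 and 16 counts in the treated libraries and 505 and 210 in the controls, and their part in the results was not tested.

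The promoters of the 3 members of the sterol branch that stood above both controls are shown, because SREBPs are known to bind sterol regulatory elements, often beside NF-Y, which binds CCAAT. They are RefSeq promoters on GRCm38.p6, 250 bases before to 50 after the start, and all 8 members were found there by symbol. Capitals mark matches to TCACCCCAC, the core of the sterol regulatory element, to CCAAT, or to the E-box CACGTG, on either strand, so that ATTGG is CCAAT read on the other strand.
Insig1 (chr5:28071162-28071461, + strand): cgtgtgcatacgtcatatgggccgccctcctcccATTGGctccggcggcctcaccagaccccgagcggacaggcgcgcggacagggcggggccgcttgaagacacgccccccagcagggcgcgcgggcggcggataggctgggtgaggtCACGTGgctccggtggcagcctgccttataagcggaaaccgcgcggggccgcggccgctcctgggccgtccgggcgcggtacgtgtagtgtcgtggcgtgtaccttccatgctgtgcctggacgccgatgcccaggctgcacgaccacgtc
Hmgcs1 (chr13:119690101-119690400, + strand): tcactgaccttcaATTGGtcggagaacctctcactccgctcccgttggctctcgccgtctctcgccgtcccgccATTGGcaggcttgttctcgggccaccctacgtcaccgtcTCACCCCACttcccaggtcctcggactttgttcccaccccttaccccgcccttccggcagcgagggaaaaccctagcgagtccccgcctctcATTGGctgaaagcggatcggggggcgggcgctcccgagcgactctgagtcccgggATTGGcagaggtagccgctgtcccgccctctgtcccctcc
Idi1 (chr13:8885356-8885655, + strand): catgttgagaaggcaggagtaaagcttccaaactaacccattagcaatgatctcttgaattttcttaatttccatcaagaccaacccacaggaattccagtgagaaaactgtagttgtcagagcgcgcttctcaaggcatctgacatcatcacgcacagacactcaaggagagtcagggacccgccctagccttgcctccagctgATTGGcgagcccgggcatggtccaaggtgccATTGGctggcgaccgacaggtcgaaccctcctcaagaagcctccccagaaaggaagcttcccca

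The core TCACCCCAC was matched in 1 of the 8 members, Hmgcs1, at bases -137 to -129 with the start site counted as 0. It was held by 0.551% of all 32851 promoters and by 0.759% of the 5531 tested genes found there. The looser form TCACNCCAC, which includes the core, was held by 1.24% of promoters and added no further member. CCAAT was matched in 7 of 8 members, in 37.4% of all promoters and in 43.0% of the tested genes. Hmgcs1 had 4 matches to it, Idi1 2 and Insig1 1, while Fasn had 3, of which 2 overlapped each other on opposite strands. The E-box was matched in Insig1 alone among the members, in 7.15% of all promoters and in 12.5% of the tested genes. The Sp1 box GGGCGG was matched in 6 of 8 members and in 35.7% of all promoters, but in 75.1% of those tested genes, which count with a match at any of their starts. The Acaca window lay inside the GENCODE gene, whose first base is 84129672 on chromosome 11, and held none of these letters. A match is only a description of the sequence, and no binding was measured.

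**Figure D1:**
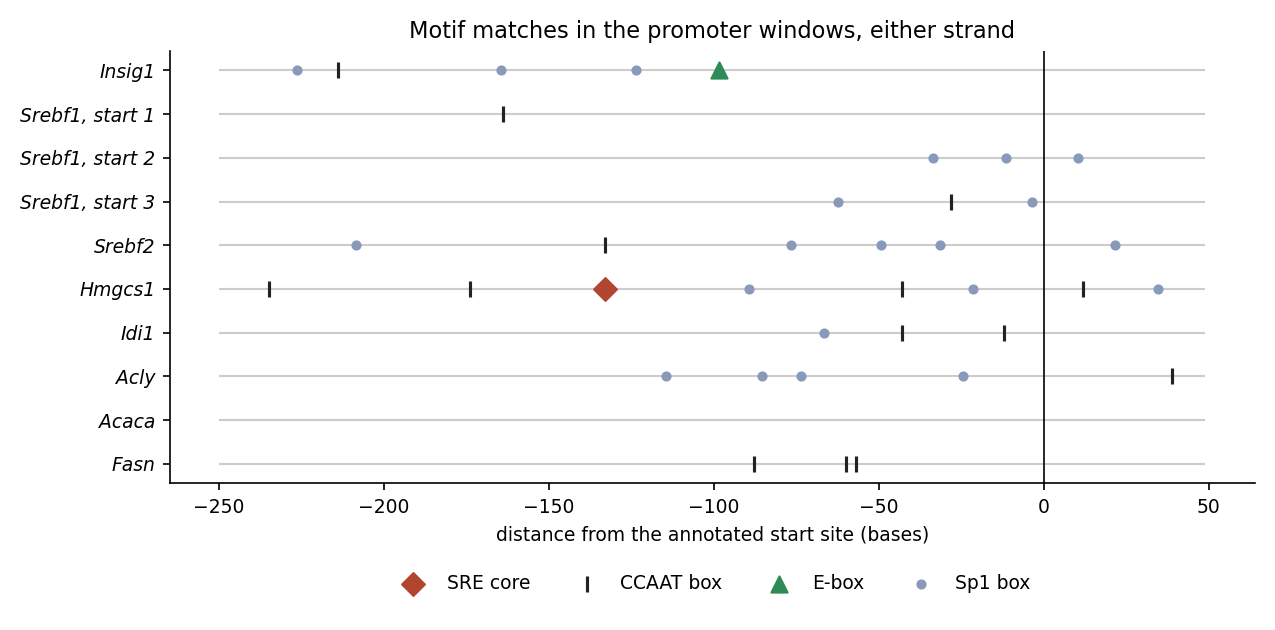
Matches of 4 motifs on either strand in the promoter windows of the 8 genes, by distance in bases from the annotated start site, with 3 starts for Srebf1. The core of the sterol regulatory element is matched in Hmgcs1 alone, and Acaca has no match.

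The members differed widely in level. Levels of different genes are compared per length, in CPM per kb of merged GENCODE exons. Acly was far above the others, at 87.4 and 86.9 CPM per kb in the treated libraries and 71.6 and 68.2 CPM per kb in the controls. By its mean it stood above 95.5% of the 7738 genes tested. Acaca came next, at 8.88 and 9.59 CPM per kb in the treated libraries and 7.96 and 8.21 CPM per kb in the controls. Idi1, Insig1 and Srebf2 followed, with ranges over the 4 libraries that overlapped between neighbours in this order, from Acaca down to Srebf2. Hmgcs1 and Srebf1 lay lower and overlapped, at 0.749 to 1.61 and 0.793 to 0.939 CPM per kb over the 4 libraries. Fasn was the lowest, at 0.2 and 0.0859 CPM per kb in the treated libraries and 0.218 and 0.196 CPM per kb in the controls. Only 1.58% of the tested genes had a lower mean per kb than Fasn, which encodes the enzyme that assembles palmitate. Acly and Acaca, whose enzymes make the precursors that FASN uses, thus had many times the CPM per kb of Fasn in all 4 libraries. Whether Fasn reads were partly lost in the counting, as may hold for the genes listed at 0, was not tested.

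**Figure D2:**
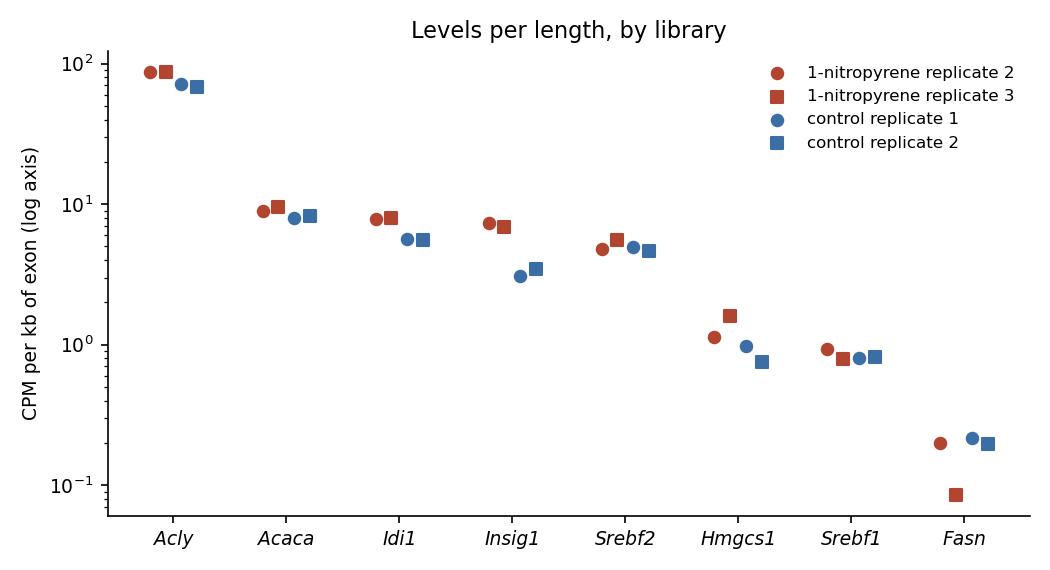
CPM per kb of exon on a log axis for each of the 8 genes, with 1 point per library (1-nitropyrene red, control blue). Acly lies between 68.2 and 87.4 CPM per kb in the 4 libraries and Fasn between 0.0859 and 0.218.

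Between the groups, Insig1 differed most among the 8 genes, at 2.19 times the control level with 1-nitropyrene. Hmgcs1, Idi1, Acly and Acaca were also higher in both treated libraries than in both controls, by smaller folds. Srebf1, Srebf2 and Fasn overlapped between the groups. Over all 7738 tested genes, 59.2% had both treated libraries on 1 side of both controls, as did 5 of the 8 members, all of them with the treated libraries above. By edgeR's quasi-likelihood test, 24.5% of the tested genes were called at an adjusted p under 0.05 (13.2% higher, 11.2% lower), and 4 of the 8 members were called higher (Insig1, Idi1, Acly and Acaca) and 0 lower. At an unadjusted p under 0.05, 5 were higher and 0 lower. The share of all tested genes at that threshold was not counted. DESeq2 called 3 of the 8 higher and 0 lower, against 514 higher and 316 lower of all 7738 tested genes. Since this contrast served to choose the members, nothing is read from these counts. The median log2 fold change was 0.25 over the members and -0.0035 over all tested genes.

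Insig1 (GRCm38 chromosome 5, 28071363 to 28078662) had 196 and 182 counts in the treated libraries, against 104 and 75 counts in the controls. On the scaled level this was 22.5 and 21.4 CPM in the treated libraries and 9.57 and 10.7 CPM in the controls. The groups lay far apart compared with the distance between libraries of a group. The fold was 2.19, a log2 fold change of 1.13 (SE 0.16). Of all 7738 tested genes, 48 had a larger log2 fold change, and 6 of those were among the 4699 that averaged 10 CPM or more. Leaving out 1 library at a time gave log2 fold changes of 1.03 to 1.2. Its exons share no bases with an annotated gene on the opposite strand.

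The genes of INSIG1's relatives and binding partners were not called. Insig2, which encodes the second INSIG protein, was at 36.7 and 27.3 CPM in the treated libraries and 26.9 and 30.1 CPM in the controls, and the groups overlapped. It differed by 0.19 on the log2 scale (SE 0.11, adjusted p = 0.234, edgeR), but by -0.046 without 1-nitropyrene replicate 2 and by 0.38 (adjusted p = 0.0188, edgeR) without 1-nitropyrene replicate 3. Scap was at 36.5 and 39.3 CPM in the treated libraries and 39.6 and 35.5 CPM in the controls, and its groups overlapped too (-0.003 on the log2 scale, SE 0.099, adjusted p = 0.988, edgeR). The 95% interval of the Scap fold was 0.872 to 1.14, and 985 bp of its exons are shared with an opposite-strand gene. Per kb, the ratio of Insig1 to Insig2 was 0.690 and 0.881 in the treated libraries and 0.4 and 0.401 in the controls. The treated libraries thus held more Insig1 relative to Insig2 than the controls, with Insig2 the more abundant in all 4.

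Srebf1 and Srebf2 encode the SREBP precursors, Srebf2 the form best known for sterol genes and Srebf1 those for fatty acid and sterol genes. Srebf2 (chromosome 15, 82147181 to 82205379) was at 34.3 and 40.1 CPM in the treated libraries and 35.6 and 33.1 CPM in the controls. The groups overlapped, with a log2 fold change of 0.10 (SE 0.10) that was -0.014 without 1-nitropyrene replicate 3. Srebf1 (chromosome 11, 60199089 to 60222581) had only 46 and 38 counts in the treated libraries and 49 and 32 in the controls. At 5.29 and 4.47 CPM in the treated libraries and 4.51 and 4.59 CPM in the controls, its groups overlapped too. Its log2 fold change was 0.11 (SE 0.28), and the 95% interval of the fold, 0.731 to 1.58, shows how little this depth can tell. It shares 109 bp of exon with the opposite-strand gene Rai1, which had 213 and 204 counts in the treated libraries and 183 and 127 in the controls and was called higher (log2 fold change 0.48, SE 0.14, adjusted p = 0.00281, edgeR). Counts per gene do not separate the SREBP1 forms, nor do they show SREBP cleavage.

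**Figure D3:**
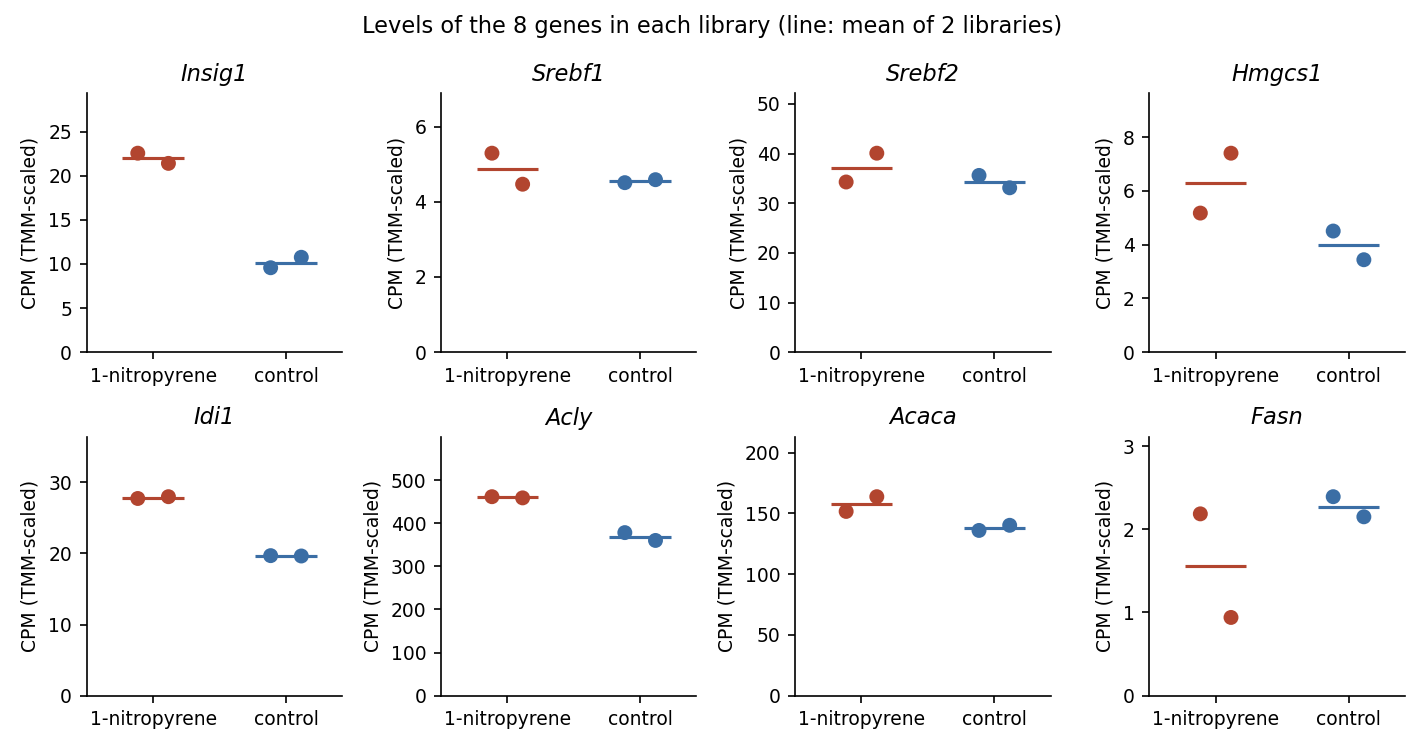
TMM-scaled CPM of each of the 8 genes in each library on axes that start at 0, with the 2 treated libraries left of the 2 controls and a line at each group's mean. Insig1 lies at 21.4 to 22.5 CPM with 1-nitropyrene and 9.57 to 10.7 CPM in control, and the groups overlap for Srebf1, Srebf2 and Fasn.

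In the sterol branch, Idi1 encodes the isomerase that interconverts the building blocks of isoprenoids and Hmgcs1 the synthase that makes HMG-CoA. Idi1 (chromosome 13, 8885501 to 8892451) was at 27.7 and 28.0 CPM in the treated libraries and 19.7 and 19.6 CPM in the controls, from 241 and 238 counts and 214 and 137 counts. Its libraries agreed closely within each group, and the log2 fold change was 0.50 (SE 0.13). It shares 323 bp of exon with Gm48574 on the opposite strand, which had 0 counts in all 4 libraries. Hmgcs1 (chromosome 13, 119690379 to 119708260) had 45 and 63 counts in the treated libraries and 49 and 24 in the controls. This gave 5.18 and 7.40 CPM in the treated libraries and 4.51 and 3.44 CPM in the controls, groups that lay next to each other without overlap. The log2 fold change of 0.62 (SE 0.27) ranged from 0.34 without 1-nitropyrene replicate 3 to 0.86 without control replicate 1.

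Hmgcs1 shares 557 bp of exon with the antisense gene Gm48342. That gene was at 8.51 and 7.17 CPM in the treated libraries and 3.22 and 4.44 CPM in the controls, a log2 fold change of 1.08 (SE 0.27). Reads from the shared bases can be assigned to 1 gene of the pair only by strand, and no source used here gives the strand setting of the counting. The part of each gene in the other's counts was not tested. Idi2, the paralogue of Idi1, was listed at 0 counts in all 4 libraries. Among all tested genes 35.7% share exon bases with a gene on the opposite strand.

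In the fatty acid branch, ACLY splits citrate into cytosolic acetyl-CoA, ACACA carboxylates it to malonyl-CoA and FASN joins these into palmitate. Acly (chromosome 11, 100476353 to 100528000) was at 461 and 459 CPM in the treated libraries and 378 and 360 CPM in the controls. The treated libraries lay above both controls, with a log2 fold change of 0.32 (SE 0.04) that stayed between 0.28 and 0.35 when 1 library was left out. Acaca (chromosome 11, 84129672 to 84401651) was at 152 and 164 CPM in the treated libraries and 136 and 140 CPM in the controls. Its log2 fold change of 0.19 (SE 0.05) was the smallest of the 5 members that did not overlap. Its call by edgeR was not made by DESeq2 (0.19 on the log2 scale), nor by edgeR without 1-nitropyrene replicate 3 (0.14) or without control replicate 1 (0.17).

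Fasn (chromosome 11, 120805846 to 120824547) had 19 and 8 counts in the treated libraries and 26 and 15 in the controls. At 2.19 and 0.94 CPM in the treated libraries and 2.39 and 2.15 CPM in the controls, the groups overlapped. The log2 fold change was -0.55 (SE 0.44), with a 95% interval of the fold from 0.375 to 1.253. It was -0.07 without 1-nitropyrene replicate 3 and -1.28 without 1-nitropyrene replicate 2. The former library was also the lowest in mitochondrial mRNA, and a link to Fasn was not tested. Fasn was the only member with a negative value, at a depth that could not show a difference of this size. Acacb, the second acetyl-CoA carboxylase, had 0 counts in both treated libraries and 2 and 1 in the controls.

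**Figure D4:**
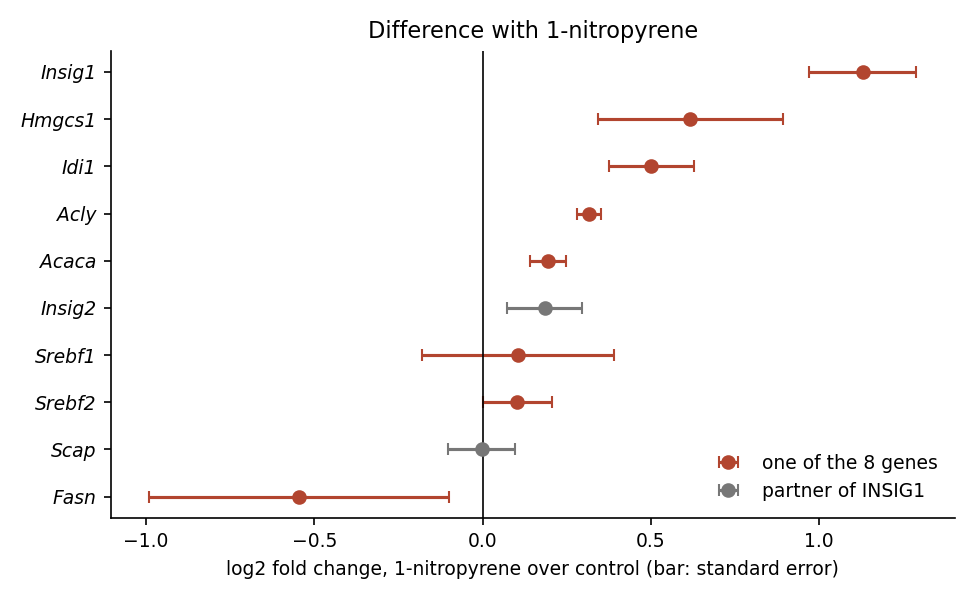
Log2 fold change of 1-nitropyrene over control with its standard error for the 8 genes (red) and for Insig2 and Scap (grey), ordered by size. Insig1 stands at 1.13, and Fasn has the widest bar, with a standard error of 0.44.

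The other genes of these pathways were counted from lists of lipid genes. Over 8 lists with 165 genes, 97 were tested and 28 had 0 counts in all 4 libraries. Without the members, 6 of 89 tested genes rose (6.74%) and 12 fell (13.5%), against 13.2% and 11.2% over all tested genes. Their median log2 fold change was -0.09. With the members, edgeR called 10 higher and 12 lower and DESeq2 5 higher and 7 lower, while limma-voom gave the same counts as edgeR in each of the 8 lists. Over all 7738 tested genes DESeq2 called 514 higher and 316 lower. The share of all tested genes at an unadjusted p under 0.05 was not counted, so list counts at that threshold stand without a background.

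Genes that hold, carry, cut or degrade the SREBP complex had 16 of 20 tested, with 2 higher and 3 lower and a median log2 fold change of 0.05. Besides Insig1, Sec24c rose, which encodes a cargo adaptor of the COPII coat that buds vesicles from the endoplasmic reticulum. Sec24c was at 173 and 175 CPM in the treated libraries and 153 and 152 CPM in the controls (log2 fold change 0.19, SE 0.05, adjusted p = 0.00124, edgeR), and 214 bp of its exons overlap a gene on the other strand. Erlin2, which encodes a membrane protein of endoplasmic reticulum protein degradation, fell to 9.20 and 8.34 CPM in the treated libraries, against 14.7 and 15.9 CPM in the controls (-0.79, SE 0.18, adjusted p = 0.00014, edgeR). Mbtps1, which encodes the site-1 protease of SREBP cleavage, fell to 99.5 and 96.5 CPM in the treated libraries, against 111 and 111 CPM in the controls (-0.18, SE 0.06, adjusted p = 0.0152, edgeR). For each of these 3 genes the groups did not overlap, but DESeq2 ended the calls of Sec24c (adjusted p = 0.057) and Mbtps1 (0.165). Without a filter edgeR did not call Mbtps1. Mbtps1 was also lost without control replicate 1 (adjusted p = 0.127, edgeR), control replicate 2 (0.0748) or 1-nitropyrene replicate 3 (0.0953).

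Of 21 cholesterol synthesis enzymes, 6 were tested, 7 had 0 counts throughout and 8 were too low to test. Among those listed at 0 were Mvk, Mvd and Fdps of the mevalonate pathway and Ebp and Sc5d of the late steps, so most of the pathway could not be followed. The tested enzymes had 2 higher and 0 lower and a median log2 fold change of 0.45, with Idi1 and Hmgcs1 among the 6. At an unadjusted p under 0.05, 4 were higher and 0 lower, and DESeq2 also called 2 higher and 0 lower. Acat2, which encodes an acetoacetyl-CoA thiolase, was at 11.4 and 13.2 CPM in the treated libraries and 9.66 and 8.74 CPM in the controls and did not pass (0.40, SE 0.19, adjusted p = 0.111, edgeR). Cyp51, which encodes the lanosterol demethylase, did not pass either (0.25, SE 0.15, adjusted p = 0.238, edgeR).

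Of 31 genes of fatty acid synthesis, elongation and desaturation, 20 were tested, with 4 higher and 0 lower and a median log2 fold change of 0.05. Acly and Acaca were among the 4. Slc25a1, which encodes the carrier that exports citrate from mitochondria, rose to 25.9 and 26.0 CPM in the treated libraries, against 19.1 and 19.3 CPM in the controls (0.43, SE 0.13, adjusted p = 0.00554, edgeR). Acsl4, which encodes an acyl-CoA synthetase for polyunsaturated fatty acids, was at 21.9 and 18.9 CPM in the treated libraries and 13.7 and 18.1 CPM in the controls (0.40, SE 0.15, adjusted p = 0.0275, edgeR). The control libraries of Acsl4 differed almost as much as the groups, and edgeR did not call it without a filter. Slc25a1 lost its call in DESeq2 (adjusted p = 0.121) and without control replicate 1 (0.0936, edgeR), and Acsl4 in DESeq2 (0.318), without control replicate 1 (0.624, edgeR) and without 1-nitropyrene replicate 2 (0.269, edgeR). In the whole list, 1 gene was called higher and 0 lower in DESeq2, 1 was called higher by edgeR without control replicate 1, and 4 were higher and 1 lower at an unadjusted p under 0.05. Scd1, which encodes a desaturase, was at 6.56 and 6.58 CPM in the treated libraries and 6.44 and 8.03 CPM in the controls and did not pass (-0.10, SE 0.24, adjusted p = 0.804, edgeR). Me1, which encodes a malic enzyme that supplies NADPH, did not pass either, with a narrow standard error (-0.02, SE 0.05, adjusted p = 0.861, edgeR).

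The genes of cholesterol trafficking, storage, efflux and the LXR receptors had 13 of 21 tested, with 1 higher and 4 lower and a median log2 fold change of -0.22. Vldlr, which encodes a lipoprotein receptor, fell to 100.1 and 112 CPM in the treated libraries, against 146 and 156 CPM in the controls (-0.50, SE 0.06, adjusted p = 3.96e-17, edgeR). Nr1h3, which encodes the oxysterol receptor LXR alpha, fell to 18.5 and 19.0 CPM in the treated libraries, against 29.7 and 25.2 CPM in the controls (-0.57, SE 0.13, adjusted p = 9.37e-05, edgeR). Without control replicate 1 the Nr1h3 call ended (-0.43, adjusted p = 0.086, edgeR). Osbpl9, which encodes an oxysterol-binding protein relative, fell by 0.37 on the log2 scale (SE 0.09, adjusted p = 0.000261, edgeR), with 633 bp of exon shared with Nrd1 on the opposite strand. Nceh1, which encodes a cholesteryl ester hydrolase, fell by 0.96 (SE 0.23, adjusted p = 0.000388, edgeR) at a low level. Abca1, the cholesterol exporter gene that LXR is known to control, did not pass (-0.24, SE 0.13, adjusted p = 0.17, edgeR). Gramd1a, which encodes a carrier of plasma membrane cholesterol, rested on 1 library, with 18.9 and 10.5 CPM in 1-nitropyrene replicates 2 and 3 and 9.84 and 8.60 CPM in the controls. Its difference of 0.65 on the log2 scale (SE 0.18, adjusted p = 0.00212, edgeR) was 0.16 without 1-nitropyrene replicate 2 (adjusted p = 0.71, edgeR). DESeq2 did not call it (adjusted p = 0.139), nor did edgeR without a filter, and 423 bp of its exons are shared with an opposite-strand gene.

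Triglyceride and phospholipid synthesis had 0 higher and 3 lower of 22 tested (edgeR, median log2 fold change -0.13), and 4 higher and 4 lower at an unadjusted p under 0.05. DESeq2 called 0 of these 22 in either direction, and without control replicate 1 edgeR called 1 lower. Ptdss2, which encodes a phosphatidylserine synthase, was at 133 and 141 CPM in the treated libraries and 154 and 159 CPM in the controls (-0.19, SE 0.05, adjusted p = 0.00219, edgeR), though not without 1-nitropyrene replicate 2 (adjusted p = 0.076, edgeR), nor by DESeq2 (0.0699). The other 2 that fell were the less abundant Pcyt2 (-0.68, SE 0.25, adjusted p = 0.0304, edgeR) and Agpat4 (-0.83, SE 0.21, adjusted p = 0.000846, edgeR), enzymes of phosphatidylethanolamine and phosphatidic acid synthesis.

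Fatty acid oxidation had 0 higher and 1 lower of 10 tested (median log2 fold change -0.22), with 0 higher and 5 lower at an unadjusted p under 0.05. DESeq2 gave 0 higher and 1 lower, and edgeR gave 3 lower without 1-nitropyrene replicate 2. Hadhb, which encodes a subunit of the mitochondrial trifunctional protein, fell to 90.6 and 85.8 CPM in the treated libraries, against 107 and 114 CPM in the controls (-0.32, SE 0.06, adjusted p = 6.28e-06, edgeR). Among AMPK subunits and their kinases 0 rose and 1 fell of 7 tested (median log2 fold change -0.25), with the same counts in DESeq2 and at an unadjusted p under 0.05. AMPK is known to phosphorylate and inhibit ACACA. Stk11, which encodes the AMPK kinase LKB1, fell to 29.3 and 29.6 CPM in the treated libraries, against 47.3 and 52.0 CPM in the controls (-0.74, SE 0.10, adjusted p = 3.26e-12, edgeR). Stk11 shares 232 bp of exon with Cbarp on the opposite strand. The catalytic subunit gene Prkaa1 did not pass (0.25, SE 0.25, adjusted p = 0.528, edgeR). Of 3 tested genes of lipid droplets and lipolysis 1 rose: Plin2, which encodes a coat protein of the droplets, reached 79.2 and 82.9 CPM in the treated libraries, against 59.8 and 64.2 CPM in the controls (0.40, SE 0.07, adjusted p = 1.27e-06, edgeR).

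**Figure D5:**
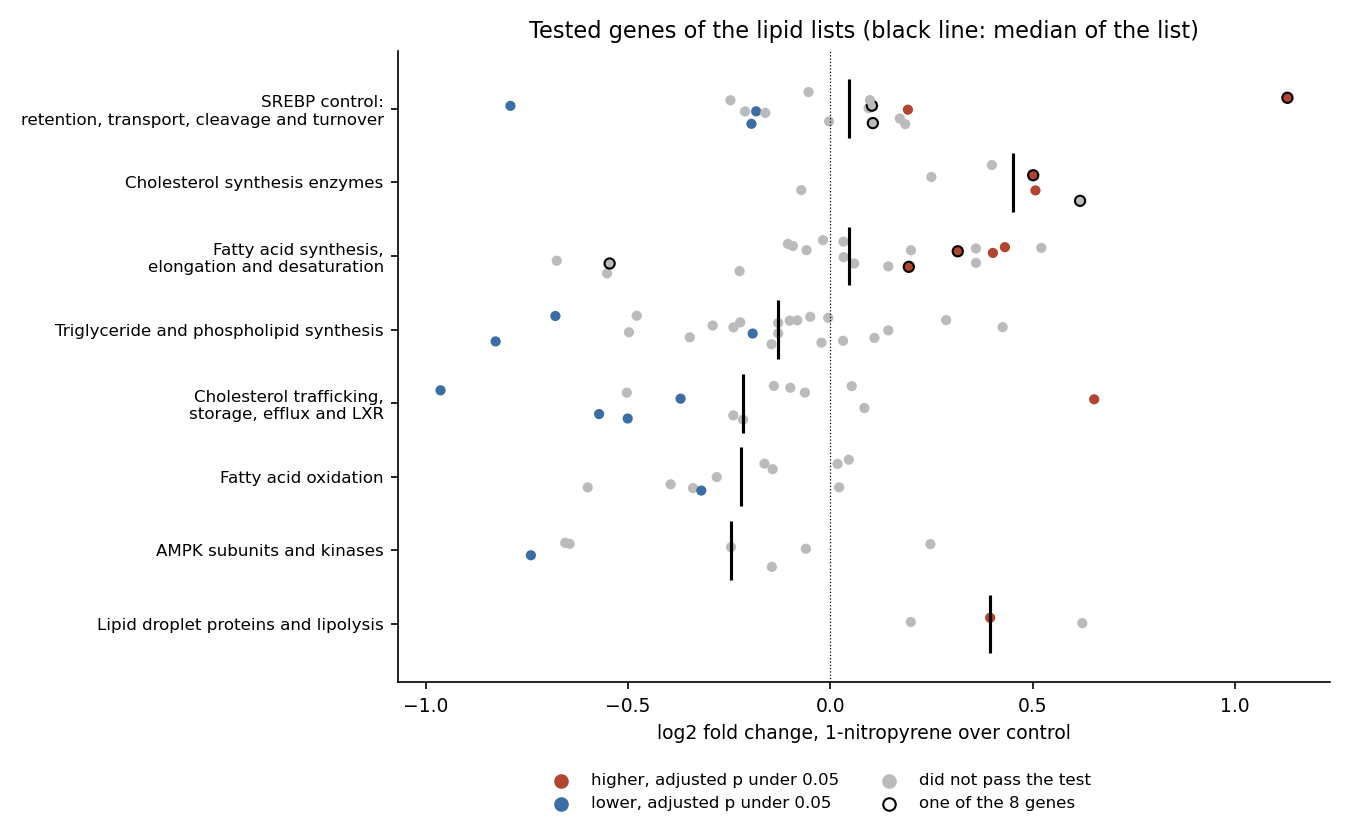
Log2 fold change of 1-nitropyrene over control for each tested gene of the 8 lipid lists, coloured by its call, with the 8 members outlined and a line at each list's median. The medians run from -0.25 for AMPK subunits and kinases to 0.45 for cholesterol synthesis enzymes.

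Pparg, which encodes a nuclear receptor that drives fat storage genes, was singled out with its values already known. It rose to 481 and 524 CPM in the treated libraries, against 375 and 387 CPM in the controls (log2 fold change 0.40, SE 0.04, adjusted p = 6.02e-28, edgeR). The fat cell genes Fabp4, Cidec, Plin1 and Adipoq had at most 5 counts in any library.

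Fbxw7, which encodes the subunit of a ubiquitin ligase known to mark nuclear SREBP for degradation, was at 23.3 and 25.0 CPM in the treated libraries and 27.1 and 29.4 CPM in the controls. The groups did not overlap, but the log2 fold change of -0.21 (SE 0.12) did not pass (adjusted p = 0.196, edgeR), with a 95% interval of the fold from 0.733 to 1.02.

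The 5 genes whose profile over the 4 libraries was nearest to that of Insig1, among 4270 named genes that averaged 10 CPM or more, were Axl, Ola1, Capns1, Wbp11 and Fn1. The measure was the Euclidean distance of centred log2 CPM, which was 0.119 for Axl and 0.179 for Fn1. With 4 libraries in 2 groups, a small distance requires a like difference between the groups. Axl, a receptor tyrosine kinase gene, was at 71.7 and 71.0 CPM in the treated libraries and 33.2 and 33.4 CPM in the controls. Ola1, an ATPase gene, was at 539 and 514 CPM in the treated libraries and 255 and 257 CPM in the controls. Capns1, the calpain small subunit gene, Wbp11, a splicing factor gene, and Fn1, the fibronectin gene, had folds of 2.03 to 2.25, and each of these 3 shares exon bases with an opposite-strand gene. None of the 5 was a member of the lipid lists.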

How the data were processed

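The authors deposited 1 table of raw read counts per gene, with 1 column per library as whole numbers that are not normalized. The build GRCm38 (mm10) and the tools DESeq2, featureCounts 1.6.3 and HISAT2 2.1.0 come from the submitters' processing notes, without their roles. The annotation and the strand setting were not given in the sources used here. Of 53465 gene identifiers 53360 matched GENCODE M21, which gave symbols, coordinates and merged exon lengths.

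Counts were analysed with edgeR 4.0.16 in R 4.3.3 (filterByExpr, which kept 7738 genes, TMM factors of 0.989 to 1.01, quasi-likelihood with legacy set to FALSE, adjusted p under 0.05 by Benjamini-Hochberg, two-sided). All genes shared 1 base dispersion (biological coefficient of variation 2.34%). The fit multiplies the spread by a further factor, which can differ with a gene's level and is not given here. This factor was drawn from the genes as a whole. A standard error, the absolute log2 fold change over the root of F, thus takes no account of a gene's own replicates. Intervals are at 95%. P-values measure only the spread between these libraries. The fit was also run on simulated counts in which all genes shared 1 dispersion. That run cannot show how calls behave where genes differ in the spread of their replicates. The chi-square per degree of freedom was 2.05 between the treated libraries, 1.62 between the controls and 9.43 between replicates 2 of the groups, so no libraries were merged.

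The members and lists were chosen with earlier results of these data known. Other genes were named by a rule: tested list genes that passed with a mean of at least 10 CPM, up to 4 per list and direction, Insig2, Scap, Fbxw7 and the 5 nearest profiles. Genes named as not passing, at 0 counts or as opposite-strand partners, and Pparg, Pcyt2, Agpat4 and Nceh1, were picked with their values known. The alternatives were 3 other scalings, 2 other filters, DESeq2 1.42.0, limma-voom 3.58.1, the older and a robust quasi-likelihood fit, protein-coding genes only, an adjusted p of 0.01, a shorter promoter window and each library left out. Some items are not reported here.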

Additional observations from a re-analysis of the deposited data

How the results depend on the processing

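No paired analysis was possible because the groups share 1 replicate number. Over all genes 1024 were called higher and 870 lower. The lower calls came to 532 without a filter and 568 at an adjusted p of 0.01, and DESeq2 called 514 higher and 316 lower. Leaving out 1 library gave 690 to 861 higher and 511 to 647 lower, fewest without control replicate 1. Without scaling factors the calls were 868 higher and 1017 lower. For the lipid lists, 10 higher and 12 lower, DESeq2 gave 5 and 7, and leaving out 1 library 7 to 10 and 8 to 13. Of the values of single genes under alternatives, 396 kept direction and side of the threshold, 22 lost their call, 2 gained one and 8 reversed. Scap, near 0, reversed to 0.0035 without a filter, 0.0037 in DESeq2, 0.00097 with the older fit and, leaving out 1 library, lay between -0.066 and 0.089, positive without 1-nitropyrene replicate 2 or control replicate 1. With 1 library left out, Srebf1 ranged from -0.023 to 0.22 and Insig2 from -0.046 to 0.38, both negative only without 1-nitropyrene replicate 2. Srebf2 ranged from -0.014 without 1-nitropyrene replicate 3 to 0.21. Insig1, Idi1 and Acly kept their direction and call under all 14 alternatives. Hmgcs1 was called only without 1-nitropyrene replicate 2 (0.85). DESeq2 gave no adjusted p for Hmgcs1, Srebf1 and Fasn. In the 250 bases before the start alone, 6 members held CCAAT. The causes were not tested. Depth limits Fasn, Srebf1 and Hmgcs1, with 8 to 63 counts per library.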
